A study of Mus musculus with 8 samples.

Results

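The nuclei described here are B cell nuclei of the mouse liver, picked from single-nucleus RNA sequencing by a rule on transcript counts. A barcode (1 droplet, taken as 1 nucleus) was a member when it had at least 300 detected genes and at least 2 UMIs summed over Pax5, Ms4a1, Cd79a, Cd79b and Bank1, from at least 2 of these 5 genes. A UMI is 1 counted RNA molecule. A member could also hold at most 1 UMI over Stab2, Reln, Pkhd1, Clec4f, Cd3e and Siglech, which mark endothelial, stellate, bile duct, Kupffer, T and plasmacytoid dendritic cells. The rule kept 681 of 59446 barcodes with at least 300 detected genes (1.15%) in 7 mice.

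The study used 8 male mice of the DIAMOND line, a cross of the strains 129A1/SvIm and C57BL/6J, which began a high-fat Western diet with fructose and glucose in the drinking water at 2 months of age. Mice of the WD tumour group (n = 3) ate it for 48 weeks and developed hepatocellular carcinoma. Mice of both RD groups ate it for 36 weeks and were then returned to chow; those of the RD tumour group (n = 2) had carcinoma and those of the RD no tumour group (n = 3) had none that could be detected. No group was kept on chow throughout, so every comparison is between livers that had met the Western diet for at least 36 weeks. The labels also put the mice at 48 weeks of age when the study ended, which cannot hold together with 48 weeks of diet from 2 months of age. Livers were snap-frozen, and the labels do not say whether the piece sampled held tumour. RD tumour 1, deposited with exactly 20000 barcodes, is outside the rule, so RD tumour 2 stands alone in its group. Libraries held 6048 to 10376 barcodes with at least 300 detected genes and 17948627 to 32537971 UMIs.

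B cells carry an antigen receptor made of an immunoglobulin heavy chain and a kappa or lambda light chain, which signals through the paired chains Cd79a and Cd79b. The transcription factors Ebf1 and Pax5 set up and hold B cell identity. A mature B cell that has not met antigen makes both IgM and IgD from 1 heavy chain locus, by splicing of the same transcript, and class switching replaces them with IgG, IgA or IgE. B cells also take up antigen and present it on MHC class II, and some become antibody-secreting plasma cells. In the liver they are found in the sinusoids and around the portal tracts.

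Sequence upstream of 2 of the rule's genes is shown, because Cd79a encodes a chain of the receptor itself and Bank1, a scaffold of receptor signalling, gave the most UMIs of the 5. The RefSeq promoter table (GRCm38.p6) held 16 of 22 B cell marker genes and 3 of the rule's 5. Each stretch is the 250 bases before RefSeq's start site, 5′ to 3′ on the gene's strand, with matches to 3 motifs in capitals. The motifs were an EBF core (CCCNNGGG), the octamer bound by Oct factors (ATGCAAAT) and an ETS core (AGGAAGT), searched on both strands.
Cd79a, chr7:24897247-24897496, + strand: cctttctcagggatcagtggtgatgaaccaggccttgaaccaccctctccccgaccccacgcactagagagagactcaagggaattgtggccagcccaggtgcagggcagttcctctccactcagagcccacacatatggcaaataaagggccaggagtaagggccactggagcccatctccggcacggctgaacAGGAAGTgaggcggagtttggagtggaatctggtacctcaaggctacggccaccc
Bank1, chr3:136326067-136326316, − strand: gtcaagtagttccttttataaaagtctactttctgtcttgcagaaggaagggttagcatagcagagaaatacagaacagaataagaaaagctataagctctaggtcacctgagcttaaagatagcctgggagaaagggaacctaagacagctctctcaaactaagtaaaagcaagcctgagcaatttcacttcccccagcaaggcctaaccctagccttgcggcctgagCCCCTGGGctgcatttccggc
The Cd79a stretch had 1 ETS core, which begins 55 bases before the start, and the Bank1 stretch had 1 EBF core, which begins 21 bases before it. Only these exact letters were searched, so a looser form of a motif in either stretch would be missed. The third of the rule's genes in the table, Pax5, had 0 matches to the 3 motifs in its 250 bases and is not printed. Of 32851 promoters of this length, 7.69% held the ETS core, 11.8% the EBF core and 1.60% the octamer, so these matches describe letters and not sites in use. In GENCODE vM21 (GRCm38), Cd79a spans chr7:24897381-24902197, so RefSeq's start and the ETS core before it lie inside the annotated gene. Bank1 spans chr3:136053363-136326066. Ebf1, the factor the rule did not use, spans chr11:44617317-45008091 on the + strand.

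RD no tumour 1, 2 and 3 held 146, 84 and 80 B cell nuclei, RD tumour 2 held 172, and WD tumour 1, 2 and 3 held 38, 91 and 70. As shares of barcodes with at least 300 detected genes these were 1.42%, 1.39% and 0.773% in the RD no tumour mice, 1.66% in RD tumour 2, and 0.589%, 1.29% and 0.789% in the WD tumour mice. The exact (Clopper-Pearson) 95% interval ran from 0.417% to 0.807% in the mouse with the fewest members, WD tumour 1, and from 1.42% to 1.92% in RD tumour 2; intervals cover counting error only. Shares of the 2 groups overlapped: RD no tumour 3 lay below 2 of the WD tumour mice. Because fewer cells of a type and less RNA per cell give the same loss of members, they cannot be told apart in these shares.

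**Figure D1:**
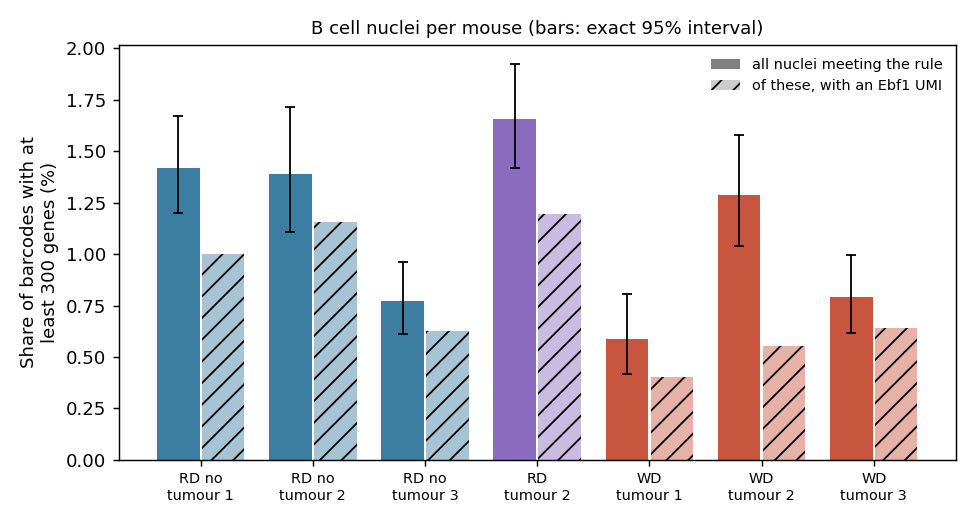
Share of barcodes with at least 300 detected genes that met the B cell rule (solid bars, with exact 95% intervals) and that also held an Ebf1 UMI (hatched bars), for each of 7 mice, in percent. The solid bars run from 0.589% in WD tumour 1 to 1.66% in RD tumour 2, and the hatched bar is under 50% of the solid one in WD tumour 2 alone.

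The mean share was 0.888% ± 0.360 (SD, n = 3) in the WD tumour mice and 1.19% ± 0.365 (SD, n = 3) in the RD no tumour mice. The log2 difference was -0.45, smaller than the spread between mice (two-sided exact permutation test, p = 0.3, where 0.1 is the smallest p that 3 against 3 allows; adjusted p = 0.6 over 2 comparisons). With the 4 tumour-bearing mice set against the 3 tumour-free mice, the log2 difference was -0.21 (exact permutation p = 0.686, smallest possible 0.0571, adjusted p = 0.686), and its direction turned without WD tumour 1. T cell nuclei, chosen by a like rule on T cell genes such as Cd3e, Cd3d, Cd3g, Themis and Bcl11b, numbered 225, 100 and 79 in the RD no tumour mice, 52 in RD tumour 2, and 76, 86 and 90 in the WD tumour mice. Per T cell nucleus there were 0.649, 0.84 and 1.01 B cell nuclei in the RD no tumour mice and 0.5, 1.06 and 0.778 in the WD tumour mice, which overlap (exact permutation p = 0.7). The log2 difference of -0.14 became 0.15 without WD tumour 1 and 0.01 without RD no tumour 3. RD tumour 2 stood apart with 3.31, from the highest B and the lowest T count of the 7 mice, and this was not tested.

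Most members carried transcripts of B cell genes that the rule did not use. Ebf1 had UMIs in 484 of 681 members (71.1%), and its summed level was 1396, 2141 and 1840 CPM in the RD no tumour mice, 1185 CPM in RD tumour 2, and 2450, 799 and 1773 CPM in the WD tumour mice. CPM is UMIs per 1000000 UMIs over all member nuclei of a mouse. In sinusoidal endothelial nuclei of the same libraries, which should lack the gene, Ebf1 lay between 1.83 and 23.5 CPM. WD tumour 2 had the lowest Ebf1 level, and no mouse's B cell nuclei came near the endothelial level. After every nucleus was thinned to 500 UMIs, Ebf1 was found in 29.7% (WD tumour 2) to 63.1% (RD no tumour 2) of members and in at most 0.656% of endothelial nuclei, and no member was too shallow to thin.

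Of the 17 B cell genes used as a check, 16 were higher in B cell nuclei than in endothelial nuclei in each of the 7 mice, and 16 were higher than in T cell nuclei. The exception was Spib, with no UMI in 2 mice. The median over mice was 986 CPM for Bach2, a repressor that holds back plasma cell fate, against 141 CPM in endothelial nuclei. Ighd had a median of 304 CPM against 1.17 CPM. Ighm, the IgM heavy chain, had 396 CPM against 26.9 CPM.

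**Figure D2:**
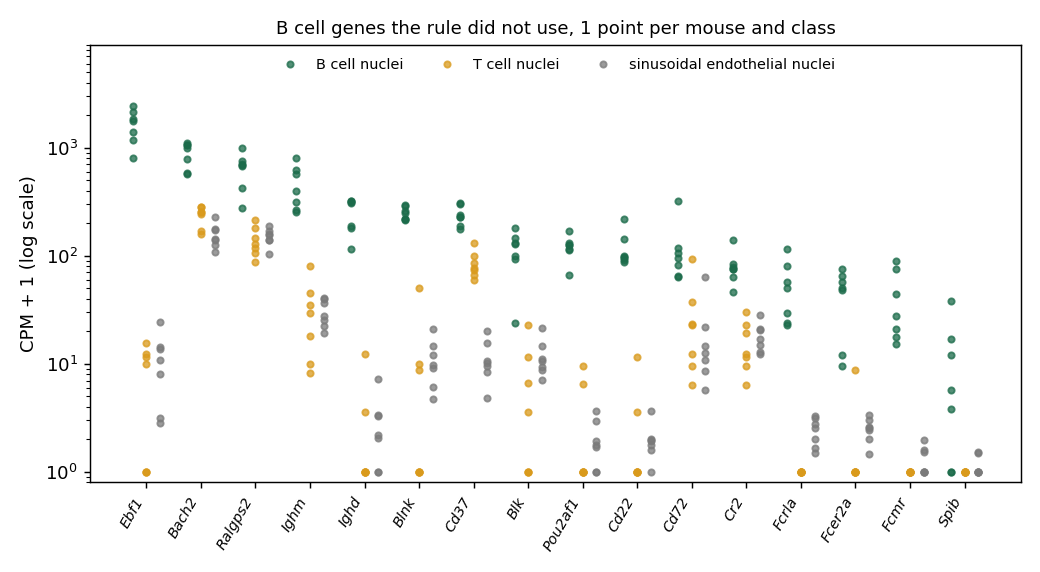
Level of 16 of the 17 B cell genes that took no part in choosing the nuclei, as CPM + 1 on a log axis, in B cell, T cell and sinusoidal endothelial nuclei, with 1 point per mouse and class. For every gene plotted except Spib, each mouse's B cell nuclei lie above its endothelial nuclei.

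Plasma cell and hepatocyte markers were present at levels close to those of the endothelial nuclei, while macrophage markers were higher in B cell nuclei in each of the 7 mice. The summed level of 10 T cell genes was 24.8 to 152 CPM in B cell nuclei and 32.3 to 90.1 CPM in endothelial nuclei. It was higher in B cell nuclei in 4 mice, most in RD tumour 2 (152 against 53.8 CPM) and RD no tumour 2 (79.3 against 32.3 CPM), and lower in 3, most in WD tumour 1 (50.8 against 90.1 CPM). The level of 12 plasma cell genes was 148 to 237 CPM against 118 to 211 CPM. The 8 hepatocyte genes, led by Alb, made up 1.78% to 3.21% of the UMIs of B cell nuclei and 1.91% to 3.12% of those of endothelial nuclei. The 7 macrophage and Kupffer genes summed to 763, 492 and 229 CPM in the RD no tumour mice, 386 CPM in RD tumour 2, and 533, 1018 and 287 CPM in the WD tumour mice, against 127 to 384 CPM in endothelial nuclei. Of these 7, none was at 0 in all mice, and the defining Kupffer gene Clec4f, limited by the rule, lay between 11.3 and 50.8 CPM. The 7 dendritic cell genes summed to 499 to 851 CPM, mainly from Bcl11a and Wdfy4, which B cells also express, while Cd209a was at 0 throughout. The 5 neutrophil genes reached 716 CPM in RD no tumour 1, where endothelial nuclei had 463 CPM, and 12.4 to 215 CPM in the other mice. The 3 erythroid genes, transcripts of red blood cells, varied most: 2534, 11513 and 1320 CPM in the RD no tumour mice, 3074 CPM in RD tumour 2, and 1765, 11746 and 493 CPM in the WD tumour mice. Those of WD tumour 2 stood at 13504 CPM in its endothelial nuclei, and RD no tumour 2 had 3182 CPM there; the part of this RNA in the results was not tested.

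The members without an Ebf1 UMI were of another make-up. They numbered 43, 14 and 15 in the RD no tumour mice, 48 in RD tumour 2, and 12, 52 and 13 in the WD tumour mice, which is 197 in all. WD tumour 2 was the only mouse in which they outnumbered the members with Ebf1 (52 against 39). In most mice they were the deeper nuclei: the median was 3864 UMIs without Ebf1 and 1943 with it in WD tumour 2. The same medians were 2506 and 1306 UMIs for RD no tumour 1. In WD tumour 1 and WD tumour 3 it was lower without Ebf1, at 1328 against 1679 and 1424 against 1574 UMIs.
Of 16 B cell genes other than Ebf1 itself, 14 were lower in the members without Ebf1 in each of the 7 mice, the exceptions being Spib and Cd72. Ighd, for example, lay between 0 and 102 CPM without Ebf1 and between 210 and 412 CPM with it. The rule's own genes split as well: Pax5, Ms4a1, Cd79a and Bank1 were lower without Ebf1 in all 7 mice, but Cd79b was higher without Ebf1 in 2 of 7. In WD tumour 2, Cd79a stood at 8.79 CPM in the members without Ebf1 while Cd79b was at 154 CPM and Bank1 at 545 CPM. Of the 106 members that qualified through Bank1 and Cd79b alone, 78 had no Ebf1 UMI, and 30 of these came from WD tumour 2 and 19 from RD no tumour 1.

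Genes with the highest level in members without Ebf1 relative to those with it, ranked by the log2 ratio averaged over mice, included Gab2, an adaptor of receptor signalling, Sirpb1a and Adgre4, both surface receptors of monocytes and macrophages, and Itga9, an integrin chain. Gab2 stood at 734, 1114 and 277 CPM without Ebf1 in the RD no tumour mice against 170, 6.76 and 8.74 CPM with it. Zeb2, a transcription factor of myeloid cells and of some B cell subsets, was higher without Ebf1 in 7 of 7 mice, with 3558 against 1991 CPM in WD tumour 2. The 7 macrophage genes summed to 469 to 1550 CPM without Ebf1 and 131 to 839 CPM with it. At least 2 macrophage UMIs were held by 98 of the 197 members without Ebf1 and by 57 of the 484 with it. In RD tumour 2 the members without Ebf1 also carried Cela1, a pancreatic enzyme, at 546 CPM. The label B cell thus matches the B cell genes of the members with Ebf1, while those without it are named here only by that lack. In WD tumour 2, however, members with Ebf1 also held 839 CPM of macrophage genes, against 384 CPM in that mouse's endothelial nuclei. At least 2 macrophage UMIs were held by 12 of its 39 members with Ebf1. Results below are for all members unless members with Ebf1 are named.

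**Figure D3:**
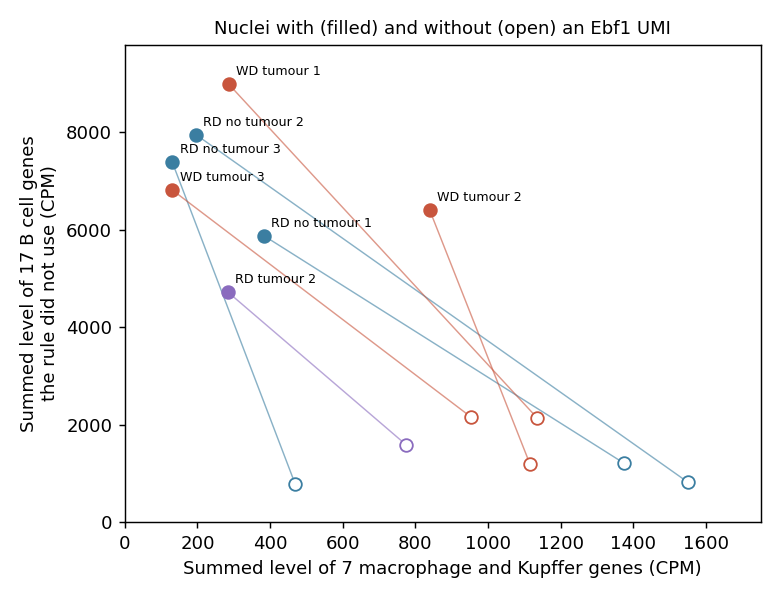
Summed level of 17 B cell genes not used by the rule (vertical axis, CPM) against that of 7 macrophage and Kupffer genes (horizontal axis, CPM) in members with an Ebf1 UMI (filled) and without (open), joined by mouse. Open points lie lower and further to the right than the filled point of the same mouse in all 7 mice. The 17 genes include Ebf1, which open points lack by the split itself, so part of their lower position was fixed in advance. Of the 16 other genes, 14 were lower without Ebf1 in every mouse. WD tumour 2 has the highest macrophage level among the filled points, 839 CPM.

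Counted over members with Ebf1 alone, the share of barcodes was 1.00%, 1.16% and 0.628% in the RD no tumour mice, 1.20% in RD tumour 2, and 0.403%, 0.552% and 0.643% in the WD tumour mice. The means were 0.929% ± 0.272 and 0.532% ± 0.121 (SD, n = 3 each). RD no tumour 3 still lay below WD tumour 3, so the groups overlapped. The exact permutation p was 0.2 for a log2 difference of -0.78.

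Values at the edge of the rule describe how the choice was made. Of the 681 members, 136 held exactly 2 marker UMIs, 109 held 3 and 436 held 4 or more. Ebf1 was found in 4.17% (WD tumour 2) to 50% (WD tumour 3) of the members with 2 marker UMIs, with a median mouse at 33.3%, and in 67.9% (WD tumour 2) to 95.2% (RD tumour 2) of those with 4 or more. Just outside, 1139 barcodes had 2 or more marker UMIs from 1 gene only, 366 of them in RD no tumour 1 and 271 in WD tumour 2, and 3.32% of those in WD tumour 2 held Ebf1. Another 396 barcodes met the marker conditions and were dropped by the excluding genes, 158 of them in RD tumour 2 with a median of 15099 UMIs. Ebf1 was found in 40.3% (RD no tumour 1) to 85% (WD tumour 1) of these dropped barcodes, and in 77.2% in RD tumour 2. In the other direction, 92 of 5452 endothelial nuclei chosen with no limit on B cell genes met the B cell UMI conditions, from 0.485% in WD tumour 3 to 4.01% in RD tumour 2. Of the member barcodes, 14 were also listed in another library and 1 was a member in more than 1.

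Immunoglobulin chains, none of which the rule used, showed members that were largely unswitched. Ighm and Ighd UMIs were found together in 158 members, out of 356 with Ighm and 248 with Ighd, while 43 members had a UMI of a switched heavy chain (Igha, Ighg1, Ighg2b, Ighg2c or Ighg3; Ighe was at 0). Ighm and Ighd made up 91.0%, 100% and 99% of heavy chain UMIs in the RD no tumour mice, 94.6% in RD tumour 2, and 97.4%, 89.6% and 96.7% in the WD tumour mice. In endothelial nuclei, which should lack these transcripts, that share was 46.7% to 95.3%. The group means were 96.7% ± 4.96 and 94.6% ± 4.32 (SD, n = 3 each), which did not differ beyond the spread (exact permutation p = 0.5, adjusted p = 0.75 over 3 shares). Without WD tumour 2 the difference of -2.09 percentage points became 0.397, and over members with Ebf1 alone it was 0.684.

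Within the IgM and IgD transcripts, the Ighd share was 40.4%, 36.1% and 49.0% in the RD no tumour mice (of 161, 169 and 100 UMIs), 32.1% in RD tumour 2 (of 246), and 33.8%, 31.0% and 28.1% in the WD tumour mice (of 74, 129 and 178). All 3 WD tumour mice lay below all 3 RD no tumour mice, with means of 31.0% ± 2.85 and 41.8% ± 6.57 (SD, n = 3 each). The exact permutation p of 0.1 is the smallest this design can give, and the adjusted p was 0.3, so the difference does not pass the threshold of 0.05. Exact 95% intervals of neighbours overlapped: 28.9% to 43.8% in RD no tumour 2 and 23.2% to 45.7% in WD tumour 1. Over members with Ebf1 the groups overlapped, as WD tumour 2 had 39.8% and RD no tumour 2 had 36.1% (exact permutation p = 0.3). In endothelial nuclei the Ighd share was 0% to 14.0%.

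Lambda and kappa light chains were about equally counted. Iglc1, Iglc2 and Iglc3 together gave 53.2%, 50.4% and 48.5% of light chain UMIs in the RD no tumour mice (92 of 173, 64 of 127 and 33 of 68), 59.0% in RD tumour 2, and 53.0%, 44.9% and 58.9% in the WD tumour mice. The groups did not differ beyond the spread (52.3% ± 6.99 against 50.7% ± 2.34, SD, n = 3 each, exact permutation p = 0.8, adjusted p = 0.8), and without WD tumour 3 the difference of 1.58 percentage points became -1.71. In endothelial nuclei of the same libraries the lambda share was 6.67% to 11.2%, so the light chain UMIs of members and those of the surrounding nuclei were of different composition. Only kappa was seen in 133 members, only lambda in 141 and both in 129. A B cell normally uses 1 light chain, and Igkc was found in up to 5.25% of endothelial nuclei after thinning to 500 UMIs. Iglc2 and Iglc3 are near-identical copies, and how reads that match both were counted is not given in the sources used here, so the lambda share is uncertain. It is a share of counted UMIs and not of B cells that use lambda. Why it lay so far above the share in endothelial nuclei was not tested.

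**Figure D4:**
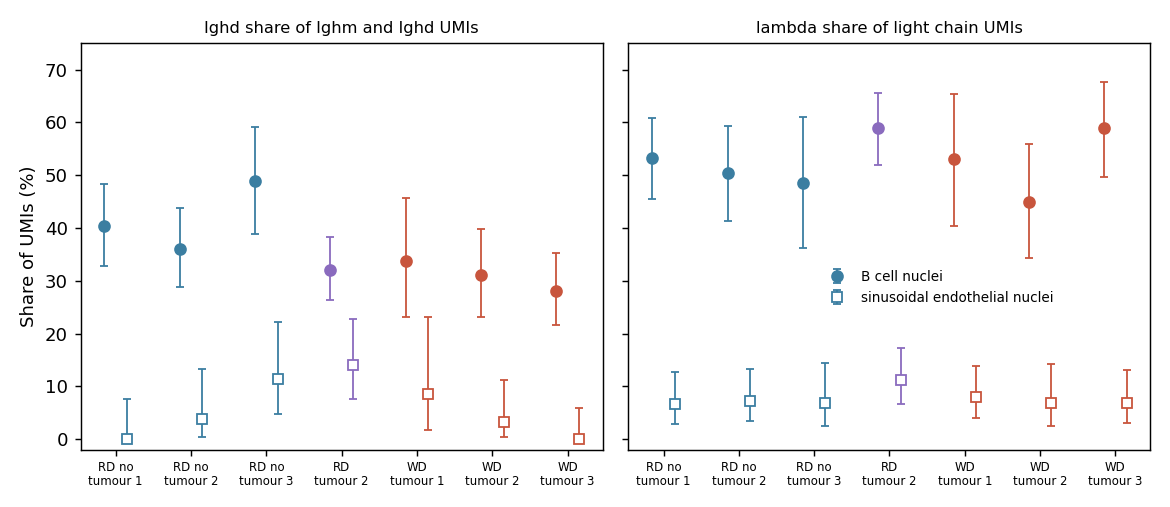
Share of Ighd among Ighm and Ighd UMIs (left) and of lambda among light chain UMIs (right), in percent with exact 95% intervals, in B cell nuclei (filled circles) and sinusoidal endothelial nuclei (open squares) of 7 mice. In B cell nuclei the Ighd share is 28.1% to 33.8% in WD tumour mice and 36.1% to 49.0% in RD no tumour mice, and the lambda share stays between 44.9% and 59.0%.

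Gene levels were compared over UMIs summed per mouse, with edgeR's quasi-likelihood test and Benjamini-Hochberg adjustment over 6493 genes. No gene passed an adjusted p of 0.05 between WD tumour and RD no tumour mice (percent called 0); 153 (2.36%) had an unadjusted p under 0.05, with 39 higher (0.601%) and 114 lower (1.76%) in WD tumour. DESeq2, given 18478 genes without edgeR's filter on low counts, likewise called 0 genes, with 143 at an unadjusted p under 0.05. With no filter on low counts, however, edgeR called 38 genes, 13 higher and 25 lower in WD tumour. Of these, 36 had also been tested with the filter, Lpl, St18, Gadd45g, Nnmt and Scara5 among them, so the absence of calls in edgeR depends on the filter. On simulated counts for the same genes, the test recovered 41% of 4-fold and 90% of 16-fold changes, so moderate changes could be missed at this depth. The simulation gave every gene the same dispersion (0.194) and held no outlying mouse. Recovery of genes with a wider spread between mice was not simulated, so large changes could be missed as well. Groups did not overlap for 563 genes (8.67%), 335 with all WD tumour mice above (5.16%) and 228 with all below (3.51%). Gene values below come from the filtered fit, in which nothing was called, and are descriptions.
RNA quality also differed between mice: the median mitochondrial share of member UMIs was 1.47%, 4.95% and 2.60% in the RD no tumour mice, 2.05% in RD tumour 2, and 7.74%, 1.61% and 7.65% in the WD tumour mice. A limit of 5% left WD tumour 1 with 6 of its 38 members and WD tumour 3 with 15 of 70, and no gene was called there either, with 205 at an unadjusted p under 0.05 in edgeR. Its part in the gene values was not tested beyond that. A gene can pass the filter on low counts through the group in which it is high, so a count over the tested genes of a list does not support that list.

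Antigen receptor and coreceptor signalling was well represented, with 27 of 28 genes tested. The highest were Lyn, a kinase that starts and restrains the signal, and Prkcb, the kinase that passes it on to NF-kappaB. Lyn measured 1135, 856 and 843 CPM in the RD no tumour mice, 635 CPM in RD tumour 2, and 901, 2407 and 718 CPM in the WD tumour mice; WD tumour 2 alone was high. Prkcb measured 556, 618 and 514 CPM in the RD no tumour mice, 455 CPM in RD tumour 2, and 927, 1253 and 674 CPM in the WD tumour mice. All 3 WD tumour mice lay above all 3 RD no tumour mice for Prkcb. Counting Prkcb, this held for 2 of the list's 27 tested genes and for 335 of all 6493 (5.16%). The log2 fold change of Prkcb was 0.73 ± 0.39 (SE; edgeR, unadjusted p = 0.098, adjusted p = 1).
In endothelial nuclei of the same mice the Prkcb value was -0.56. The list's median log2 fold change was 0.20 beside 0.05 over all genes tested, and 0.25 for the same genes in endothelial nuclei. Of the 27 genes, 18 were higher in WD tumour, beside 3483 of 6493 over all genes tested.

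Transcription factors of B cell identity gave 17 of 18 genes tested, none at an unadjusted p under 0.05 and none with separate groups. Foxp1, needed for early B cell development, was abundant at 842 CPM (WD tumour 2) to 2184 CPM (WD tumour 1). Ebf1 had a log2 fold change of -0.16 ± 0.51 (SE). The list's lowest unadjusted p values belonged to Pou2f2, an octamer-binding factor, with a log2 fold change of 0.98, and Ikzf1, a regulator of lymphoid development, with 0.48 (adjusted p = 1 for both, edgeR). For Pou2f2 this came from WD tumour 2, at 958 CPM where the other 6 mice lay between 174 and 380 CPM. The list median was 0.08.

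Some survival receptors were near the floor of detection, while Tnfrsf13b, Il21r, Il4ra and Ifngr1 passed the filter on low counts. Il21r ranged from 25.4 CPM (WD tumour 1) to 173 CPM (WD tumour 2). Tnfrsf13c, the receptor for the survival factor BAFF, had 24 UMIs over 7 mice, Cd40, the receptor for T cell help, had 50, and Tnfrsf17 had none. Bcl2, which blocks cell death, was found at 165 CPM (WD tumour 1) to 448 CPM (WD tumour 2), with a log2 fold change of 0.14 over all members and -0.49 over those with Ebf1 (adjusted p = 1 and 0.985, edgeR). Of 14 genes, 10 were tested, with none at an unadjusted p under 0.05 and a median log2 fold change of 0.06.
The ligands were followed in whole libraries. Tnfsf13b, which encodes BAFF, had 2.64 to 7.75 CPM, and Tnfsf13, which encodes APRIL, 2.27 to 5.18 CPM. Cxcl13, the chemokine that draws Cxcr5-bearing B cells, differed far more between mice: 307, 54.7 and 14.9 CPM in the RD no tumour mice, 159 CPM in RD tumour 2, and 5.35, 847 and 14.8 CPM in the WD tumour mice. Within B cell nuclei the same 3 mice were highest, with 350, 31.7 and 18.6 CPM, 182 CPM, and 12.7, 1168 and 6.24 CPM. Endothelial nuclei ranged from 5.35 to 801 CPM for Cxcl13, so its level within members moved with that of the whole library. Cxcr5 itself lay between 22.7 and 106 CPM in B cell nuclei, lowest in WD tumour 2.

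MHC class II presentation was carried by Cd74, the invariant chain, H2-Eb1 and H2-Ab1. Cd74 measured 405, 703 and 390 CPM in the RD no tumour mice, 318 CPM in RD tumour 2, and 825, 201 and 762 CPM in the WD tumour mice. WD tumour 2 was the lowest of 7 mice and the other WD tumour mice were the highest, so the groups overlapped. Of 13 genes, 11 were tested, with none at an unadjusted p under 0.05. The median log2 fold change was 0.18 in B cell nuclei and 0.74 for the same genes in endothelial nuclei; without WD tumour 2 it was 0.42 in B cell nuclei.

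Homing and retention genes held 1 gene at an unadjusted p under 0.05 in each direction, out of 12 tested of 15. Of all 6493 genes tested, 39 (0.601%) were higher and 114 (1.76%) lower at that p. A list of 12 genes is too short to be set apart from these shares. Itgb7, a chain of the gut-homing integrin, measured 19.3, 37.0 and 12.4 CPM in the RD no tumour mice, 59.2 CPM in RD tumour 2, and 102, 45.4 and 49.9 CPM in the WD tumour mice. These rest on 2 to 25 UMIs per mouse. Its log2 fold change was 1.35 ± 0.57 (SE; unadjusted p = 0.0419, adjusted p = 1, edgeR), against -0.23 in endothelial nuclei. The list median was -0.11, and -0.40 over members with Ebf1. Itga4 and Itgb1, the other abundant integrin chains, ranged from 174 to 353 CPM and from 130 to 425 CPM.

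Lists of B cell states were sparse. Of 7 follicular genes all were tested, with a median log2 fold change of -0.27. Cd55, a complement regulator, had a log2 fold change of -0.73 with adjusted p = 1 in edgeR. Marginal zone and B-1 genes gave 5 of 12 tested with a median of -0.17, or -0.40 over members with Ebf1, and Cd5 had 4 UMIs over 7 mice. Germinal centre and cycling genes gave 5 of 9 tested, with a median of 0.16 that became -0.68 without WD tumour 2 and 1.32 over members with Ebf1, where 3 genes were tested. Mki67, a proliferation gene, had 16, 1 and 0 UMIs in the RD no tumour mice, 5 in RD tumour 2, and 0, 34 and 1 in the WD tumour mice. RD no tumour 1 and WD tumour 2 thus held most of them. In these mice Mki67 stood at 72.0 and 105 CPM in members without Ebf1 and 26.8 and 80.0 CPM in those with it. It was higher without Ebf1 in 4 of 7 mice. The same mice had the most macrophage transcripts in their members (763 and 1018 CPM), and a link between the 2 was not tested.

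Genes of age-associated or atypical B cells had the highest list median, 0.96 over 6 genes tested of 9, with all 6 above 0. Over all genes tested, 3483 of 6493 were above 0. Fcrl5, an Fc receptor-like protein of such cells, measured 185, 122 and 167 CPM in the RD no tumour mice, 109 CPM in RD tumour 2, and 63.5, 780 and 81.2 CPM in the WD tumour mice. Zeb2 measured 1245, 645 and 508 CPM, 697 CPM, and 800, 3002 and 656 CPM in the same order. WD tumour 2 alone stood high for both, and without it the median of the 4 genes still tested was -0.69. Over members with Ebf1 the median of the 4 genes tested was 1.37, and Zeb2 had a log2 fold change of 1.43 against 0.89 over all members. WD tumour 2 had the highest summed macrophage level over all members (1018 CPM) and over those with Ebf1 (839 CPM), and its part in these values was not tested. In WD tumour 2, Fcrl5 was at 988 CPM in members without Ebf1 and 400 CPM in those with it.
Plasma cell genes gave 2 of 8 tested, Xbp1 and Sdc1. Jchain, which joins IgA and IgM, had 9 UMIs over all members, Irf4 10, and Mzb1 16, with no Mzb1 UMI in the WD tumour mice.

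Activation genes gave 6 of 16 tested, with a median log2 fold change of 0.49 that became -0.44 without WD tumour 2 and 0.25 over members with Ebf1. Junb, an AP-1 subunit, ranged from 12.7 CPM in WD tumour 1 to 159 CPM in WD tumour 2. Interferon-stimulated genes gave 6 of 18 tested with a median of -0.01; Trim30a, the most abundant, ranged from 37.5 to 229 CPM. Toll-like and innate sensors gave 7 of 10 tested with a median of 0.14, among them Ly86, a partner of Cd180, at 133 to 343 CPM and Unc93b1, which carries Toll-like receptors to endosomes, at 118 to 258 CPM. Inhibitory and regulatory genes gave 7 of 14 tested with a median of 0.47, and of -0.49 without WD tumour 2. Their most abundant members, Lilrb4a and Pirb, are inhibitory receptors shared with myeloid cells and were higher in members without Ebf1 in 7 of 7 mice. Il10 had 15 of its 20 UMIs in WD tumour 2.

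**Figure D5:**
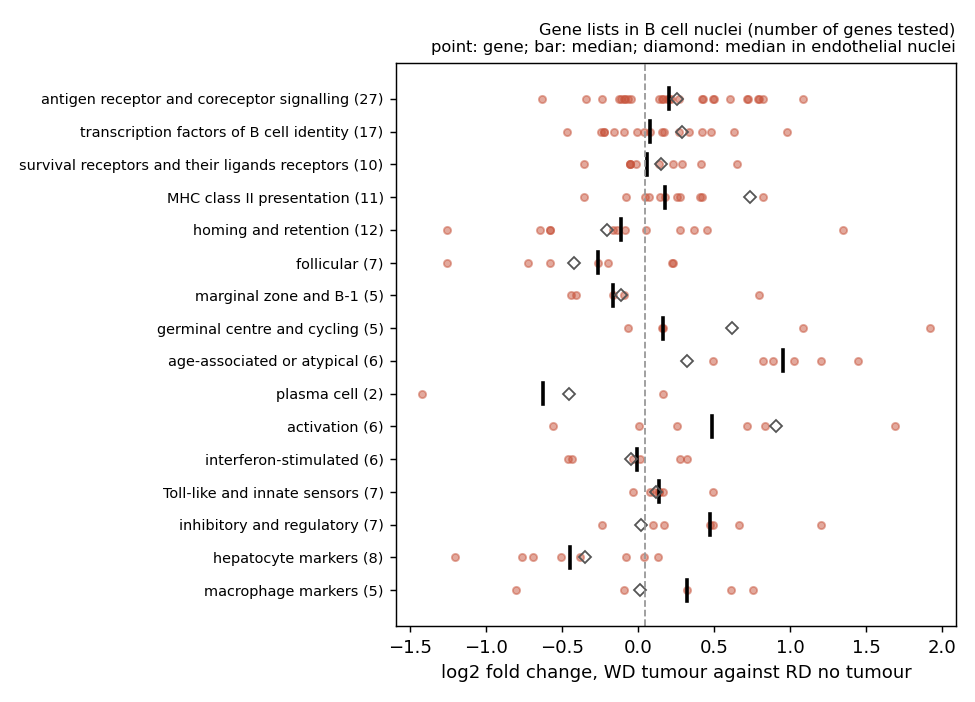
Log2 fold change of each tested gene (points) between WD tumour and RD no tumour B cell nuclei, by gene list, with the list median (bar), the median of the same genes in endothelial nuclei (diamond) and the median of all 6493 genes (dashed line at 0.05). The age-associated list has the highest median, 0.96, and no point passed the adjusted threshold.

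Over all genes, the lowest p values for higher levels belonged to Lpl, St18, Anxa5, Bicra, Slc7a7 and Adgrv1. Lpl, lipoprotein lipase, measured 2.75, 0 and 6.20 CPM in the RD no tumour mice, 19.0 CPM in RD tumour 2, and 50.8, 96.4 and 74.9 CPM in the WD tumour mice. That is 1, 0 and 1 UMIs, 8 UMIs, and 4, 34 and 12 UMIs, so the fitted log2 fold change of 4.52 ± 0.80 (SE; edgeR, unadjusted p = 0.000291, adjusted p = 0.836) depends on the prior count. The ratio of summed Lpl UMIs, 50 against 2, was 30.2 times (exact 95% interval 7.92 to 256, counting error only). The value in endothelial nuclei was 2.42, and in members with Ebf1 it was 4.55. St18, a zinc finger factor, had 3, 62 and 2 UMIs in the WD tumour mice, so WD tumour 2 held nearly all. Bicra, a chromatin remodelling subunit, was even across mice, with 85.4, 95.1 and 118 CPM against 203, 179 and 194 CPM. Its log2 fold change was 0.91 ± 0.32 (SE; unadjusted p = 0.0195, adjusted p = 1, edgeR), against 0.25 in endothelial nuclei.

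For lower levels the 6 genes were Gadd45g, Nnmt, Scara5, AA986860, Serpina3k and Acmsd, all with each WD tumour mouse below each RD no tumour mouse. They were picked by their p in this same comparison, so this separation adds no support. It was found for 228 of all 6493 genes tested (3.51%). Gadd45g, a stress-induced gene, measured 110, 106 and 204 CPM against 38.1, 22.7 and 25 CPM. Nnmt, a nicotinamide methyltransferase of hepatocytes, measured 245, 322 and 192 CPM against 88.9, 34.0 and 49.9 CPM. The log2 fold changes were -2.40 ± 0.45 for Gadd45g and -2.31 ± 0.44 for Nnmt (SE; adjusted p = 0.836 for both, edgeR). Endothelial nuclei of the same mice had -1.74 and -2.10. Serpina3k, a protease inhibitor secreted by hepatocytes, had -1.75 in B cell nuclei and -1.53 in endothelial nuclei. The 8 hepatocyte marker genes had a median log2 fold change of -0.45 in B cell nuclei and -0.35 in endothelial nuclei, and the part of hepatocyte RNA in the values above was not tested. RD tumour 2 sat with the RD no tumour mice for Gadd45g, at 182 CPM, and for Nnmt, at 379 CPM.

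The difference between B cell and endothelial nuclei in the WD tumour against RD no tumour change was tested with the mouse as a block over 11387 genes. None passed an adjusted p of 0.05 (percent called 0), and 425 (3.73%) had an unadjusted p under 0.05, with 1.74% higher and 1.99% lower. Prkcb had a difference of 1.48 (unadjusted p = 0.00017, adjusted p = 0.639), Cd74 of -1.37 (unadjusted p = 0.00459, adjusted p = 1) and Scara5 of -1.58 (unadjusted p = 0.0109, adjusted p = 1). Fitted class by class, Cd74 had a log2 fold change of 0.18 in B cell nuclei and 1.28 in endothelial nuclei. Prkcb had 0.73 and -0.56, and Scara5 -2.48 and -1.16. The lowest adjusted p of this test, 0.369 (edgeR), belonged to another gene than Prkcb. Prkcb and Cd74 passed under some of the other settings given at the end.

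RD tumour 2 gave 0 called genes against the RD no tumour mice (percent called 0, with 26 called without the filter on low counts, and 118 or 1.82% at an unadjusted p under 0.05, of which 1.37% of all genes higher and 0.447% lower) and 0 against the WD tumour mice (percent called 0, with 78 called without the filter, and 256 or 3.94%, of which 0.77% higher and 3.17% lower in WD tumour). Here 1 mouse is assumed to vary like the others. Against the same RD no tumour mice the median over all genes was -0.06. It was 0.17 for plasma cell genes, and for the other role lists it ran from -0.15 (inhibitory genes) to -0.74 (Toll-like sensors), with -0.67 for MHC class II and -0.38 for identity factors. The gene with the lowest p was the pancreatic Cela1, chosen here after its values were seen, with 79 UMIs in RD tumour 2. It was found in that mouse's members with Ebf1 at 92.8 CPM and without at 546 CPM. Ighm at 396 CPM and Cd79a at 175 CPM in RD tumour 2 lay between the lowest and highest of the other 6 mice.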

How the data were processed

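Nuclei of 8 snap-frozen livers were sequenced with 10x Chromium 3′ chemistry. The deposited values are raw UMI counts per gene and barcode, 1 matrix per mouse with 32285 genes; per the submitters' processing notes they come from Cell Ranger 7.0.0 and mm10. How barcodes were called is not given in the sources used here, no doublet caller was run here, and 81 members had over 3 times their library's median UMI count. The members and gene lists were chosen with earlier results of these data known.

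Counts of member nuclei were summed per mouse, and the mouse is the replicate. The sums held 78762 to 421972 UMIs. They were fitted with edgeR 4.0.16 (R 4.3.3; TMM, filterByExpr, quasi-likelihood F test) over 3 groups of 7 mice, with Benjamini-Hochberg adjustment over all tested genes; DESeq2 1.42.0 was the alternative. The difference between B cell and sinusoidal endothelial nuclei was fitted with the mouse as a block. Endothelial nuclei had at least 3 UMIs from at least 2 of Stab2, Ptprb, Flt4, Clec4g and Gpr182. Shares were tested by two-sided exact permutation over mice (scipy 1.17.1), with exact binomial 95% intervals. The edgeR test of WD tumour against RD no tumour was the one checked on simulated counts.

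Genes named from a list were those past the threshold or, with none, the 2 of highest mean CPM and the 2 of lowest p, plus genes that mark an identity; over all genes, the 6 of lowest p in each direction. Some were left out, a few because they are not reported here, and low-count genes were named to show that they were near the floor. Alternatives changed the UMI, gene and mitochondrial limits, the markers, normalization and filter, and left out each mouse; members with Ebf1, or with at most 1 macrophage UMI, were added after the data were seen. RD tumour 1 was left out by the rule. The labels name no batch.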

Additional observations from a re-analysis of the deposited data

Results flagged for a closer look

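RD tumour 1, the library with exactly 20000 barcodes, entered no comparison. By the same rule 48 of its 20000 barcodes (0.24%) would be B cell nuclei, where a count of 0 would allow up to 0.015%. Only 6 of the 48 (12.5%) held an Ebf1 UMI, and Ighd had 1 UMI among them. Cd79b gave 51 UMIs, Bank1 34 and Pax5 8. The median of these barcodes was 2573 UMIs, against 1299 over the whole library.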

How the results depend on the processing

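Of the values given for shares, chain use and counts of called genes, 110 alternatives left the direction and the side of the threshold as they were. The log2 difference of the B cell share between tumour-bearing and tumour-free mice turned to 0.026 with at least 500 detected genes, and ran from -0.49 to 0.048 (without WD tumour 1) with each mouse left out. With each mouse left out, the log2 B to T ratio ran from -0.40 to 0.15, turning above 0 without RD no tumour 3 (0.01) and without WD tumour 1 (0.15). The Ighm and Ighd share of heavy chain UMIs ran from -4.94 to 0.397 percentage points, and was 0.684 over members with Ebf1. The lambda share ran from -1.71 to 5.25, the Ighd share from -13.7 to -7.27 and the log2 B cell share of WD tumour against RD no tumour mice from -0.76 to -0.19.

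With no filter on low counts, edgeR called 38 genes between WD tumour and RD no tumour, 26 between RD tumour 2 and RD no tumour, and 78 between WD tumour and RD tumour 2. Of the 38, 36 had passed the filter and 13 were higher, among them Lpl and St18, while Gadd45g, Nnmt and Scara5 were lower; the cause was not tested. With each mouse left out, 0 to 1 genes were called between WD tumour and RD no tumour, the 1 being Serpina1e without WD tumour 2. The difference between B cell and endothelial nuclei gave 1 call over members with Ebf1 (Negr1), 5 over members with at most 1 macrophage UMI (Xylt1, Ptprm, Stox2, Cd74 and Prkcb), 4 with no filter, and 0 to 7 with each mouse left out, the 7 without WD tumour 2, 6 without WD tumour 3 and 1 without RD no tumour 1.

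Directions turned for 7 named genes, most of them with a mouse left out, where the log2 fold change ran from -1.02 to 0.0056 for Bst2, -0.034 to 0.858 for Ciita, -0.14 to 0.483 for Ly86, -0.30 to 1.98 for Myof, -0.34 to 0.418 for Xbp1 (also -0.18 without RD no tumour 2) and -0.21 to 1.33 for Zeb2. Without WD tumour 2, Myof, Xbp1 and Zeb2 were below 0. Ly86 was -0.0022 with 0 excluding UMIs and -0.22 with at most 5% mitochondrial UMIs, and Il21r was -0.0048 over members with Ebf1. The replicate numbers do not pair the mice: same-numbered mice had correlations of -0.325, -0.208 and 0.330 in their deviations from the group means. A fit with the replicate number as a block called 0 genes, with 72 of 3957 at an unadjusted p under 0.05. WD tumour 1, with 38 members, limits the depth most.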
